A study of Homo sapiens with 8 samples.

Results

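The lysosome genes described here are a list of 37 genes for lysosomal hydrolases, their cofactors, lysosomal membrane proteins, subunits of the proton pump and the regulator TFEB. They were taken by symbol from a count table of 63140 genes, and all 37 were found and passed the filter on low counts. The list was named by function, but it was chosen with earlier results of these data known. The RNA came from ChIRP (chromatin isolation by RNA purification). In this method biotinylated DNA probes pull an RNA and what is cross-linked to it out of sonicated lysate. The sample titles name the cells as MOLM13 and OCI-AML4, both established human acute myeloid leukaemia lines. The line of each library was not checked further, and few genes set the labelled lines apart, as given below. All 8 libraries came from nucleofected cells fixed on day 3 after editing. AAVS1 KO cells had received Cas9 ribonucleoprotein with a guide to AAVS1, the safe-harbour site used as editing control, and HOTSCRAMBL KO cells the same nuclease with a guide to the long non-coding RNA HOTSCRAMBL. AAVS1 CBE and HOTSCRAMBL CBE cells had received a cytosine base editor, which changes C to T without cutting both strands, with the corresponding guides. Every group, controls included, had therefore been edited, and each held 2 libraries, 1 labelled MOLM13 and 1 labelled OCI-AML4. The labels give the genotype as wild type and do not state how many cells carried an edit, the RNA that the probes target, or an input library. Levels below are amounts of RNA in a pull-down, not enrichment over input.

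Lysosomes are acidic organelles in which hydrolases break down proteins, glycans and lipids delivered by endocytosis, phagocytosis and autophagy. A vacuolar proton pump (V-ATPase) acidifies the lumen, and heavily glycosylated membrane proteins line the membrane. Activator proteins help hydrolases reach lipids, and transporters move the products. Transcription factors of the TFEB family bind a short palindromic motif in the promoters of many lysosomal genes, and monocytic cells are known for a large lysosomal compartment.

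Total counts ran from 20548300 to 37970163 per library. Of the markers of myeloid leukaemia, SPI1, CD33, CSF3R and FLT3 were present in all 8 libraries, while KIT and CD34 were at or near 0. T-cell markers summed to at most 2.60 CPM (counts relative to library size, scaled by edgeR's TMM method). HOTSCRAMBL is not analysed here as a transcript, since 0 genes of the table carry that name.

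With Cas9, 13 of the 37 lysosome genes rose and 0 fell in HOTSCRAMBL KO against AAVS1 KO. Among all 24057 genes tested, 4.51% rose and 4.25% fell, 8.76% in all, by the same rule, edgeR's quasi-likelihood test with a Benjamini-Hochberg adjusted p under 0.05. The 13 were the proteases CTSB, CTSD and CTSZ, the lipid enzymes and cofactors PSAP, GRN, LIPA, PPT1 and ASAH1, the sialidase NEU1, and the membrane proteins LAMP1, LAMP2, SCARB2 and CD63. The median log2 fold change of the 37 was 0.50, beside -0.01 over all genes, and 30 of the 37 values were above 0. At an unadjusted p under 0.05, 0 members were lower, and DESeq2 and limma-voom also called 0 lower. Changes in the number of cells of a type, in RNA per cell and in pull-down capture cannot be told apart in such bulk libraries. The p-values measure the spread between these libraries only, with n = 2 per group.

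With the base editor, 9 members rose (CTSB, CTSC, CTSS, NEU1, PPT1, GRN, NPC2, LAMP2 and CD63) and 2 fell (CTSA and ARSA). The share of all tested genes that rose in HOTSCRAMBL CBE against AAVS1 CBE was 4.56%, and 4.27% fell, 8.83% in all. The members' median log2 fold change was 0.36, against -0.02 over all genes, and 25 values were above 0. Without TMM scaling the median of all genes moved to -0.17 with KO and to -0.15 with CBE. Relative to that shift the members' medians were 0.51 and 0.37, beside 0.51 and 0.38 with TMM. The direction of the CBE calls moved more, to 8 higher and 5 lower without TMM, because GAA, MANBA and MCOLN1 joined the lower side and the call of GRN was lost.

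Abundant genes are called more often, and 33 of the 37 members averaged at least 10 CPM. Among the 9645 tested genes at that level, 8.96% rose and 9.86% fell with KO, where 13 of the 33 members rose. With CBE, 10.5% of those genes rose and 9.33% fell, where 8 of the 33 members rose and 2 fell. This background was chosen after the results had been seen.

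The summed level of the 37 genes was 2374 CPM in the MOLM13 library and 2464 CPM in the OCI-AML4 library of AAVS1 KO. In HOTSCRAMBL KO the sums were 5452 and 6189 CPM. In AAVS1 CBE they were 2275 and 2577 CPM, and in HOTSCRAMBL CBE 3633 and 3444 CPM, so both HOTSCRAMBL groups lay above all 4 controls and the KO libraries highest. The group means were 2420 ± 63.6 (SD, n = 2) and 5820 ± 521 CPM with KO, a ratio of 2.41, and 2430 ± 214 and 3540 ± 134 CPM with CBE, a ratio of 1.46. CTSB, which encodes the cysteine protease cathepsin B, held 23.0% to 26.5% of that sum in the controls, 45.9% in both HOTSCRAMBL KO libraries, and 38.8% to 43.0% in HOTSCRAMBL CBE. Leaving CTSB out reduced the ratios to 1.76 and 1.14, and leaving out GRN as well gave 1.5 and 1.12. By role, the KO and CBE ratios were 3.24 and 1.97 for the proteases and 2.94 and 1.33 for the lipid group. They were 2.13 and 1.42 for the membrane proteins, 1.2 and 0.859 for the glycosidases and sulfatases, and 1.15 and 1.02 for the proton pump.

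**Figure D1:**
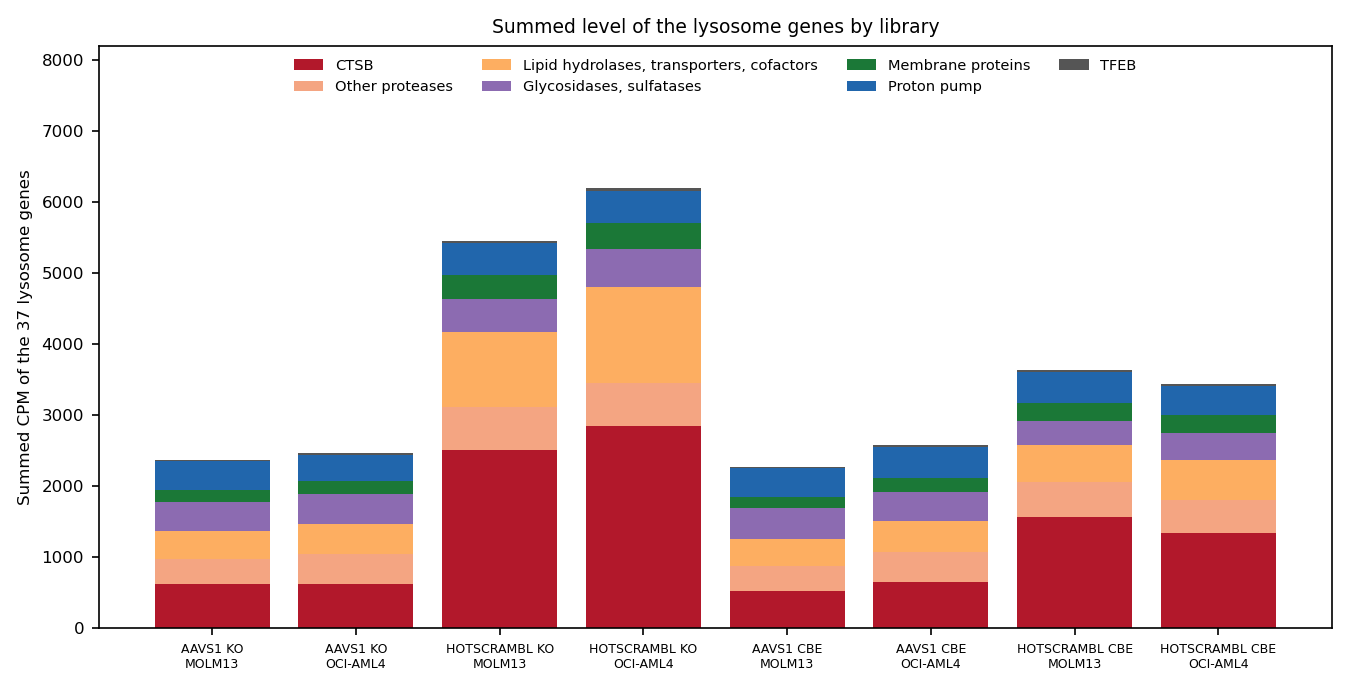
Summed CPM of the 37 lysosome genes in each of the 8 libraries (x axis: group and labelled line), stacked by role with CTSB apart. The HOTSCRAMBL KO bars reach 5452 and 6189 CPM, the HOTSCRAMBL CBE bars 3633 and 3444 CPM, and the control bars stay between 2275 and 2577 CPM.

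Each library was also set against the control library of its own labelled line. On the log2 scale, the median ratio of the 37 members with KO was 0.52 in the MOLM13 pair and 0.56 in the OCI-AML4 pair. With CBE it was 0.35 and 0.33. With KO, 27 members were higher and 5 lower in both pairs, and with CBE 23 were higher and 8 lower in both. The share of all tested genes was not computed for these counts. Between the labelled lines edgeR called 0.495% of all genes, and the labels were not checked. Agreement of the pairs is therefore agreement of 2 libraries per group, and is not shown to hold across lines. For 21 members both HOTSCRAMBL KO libraries lay above both AAVS1 KO libraries, which 21% of all tested genes did. For 5 members they lay below (23.8% of all genes). With CBE, 21 members lay above (22.7%) and 8 below (23.7%).

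**Figure D2:**
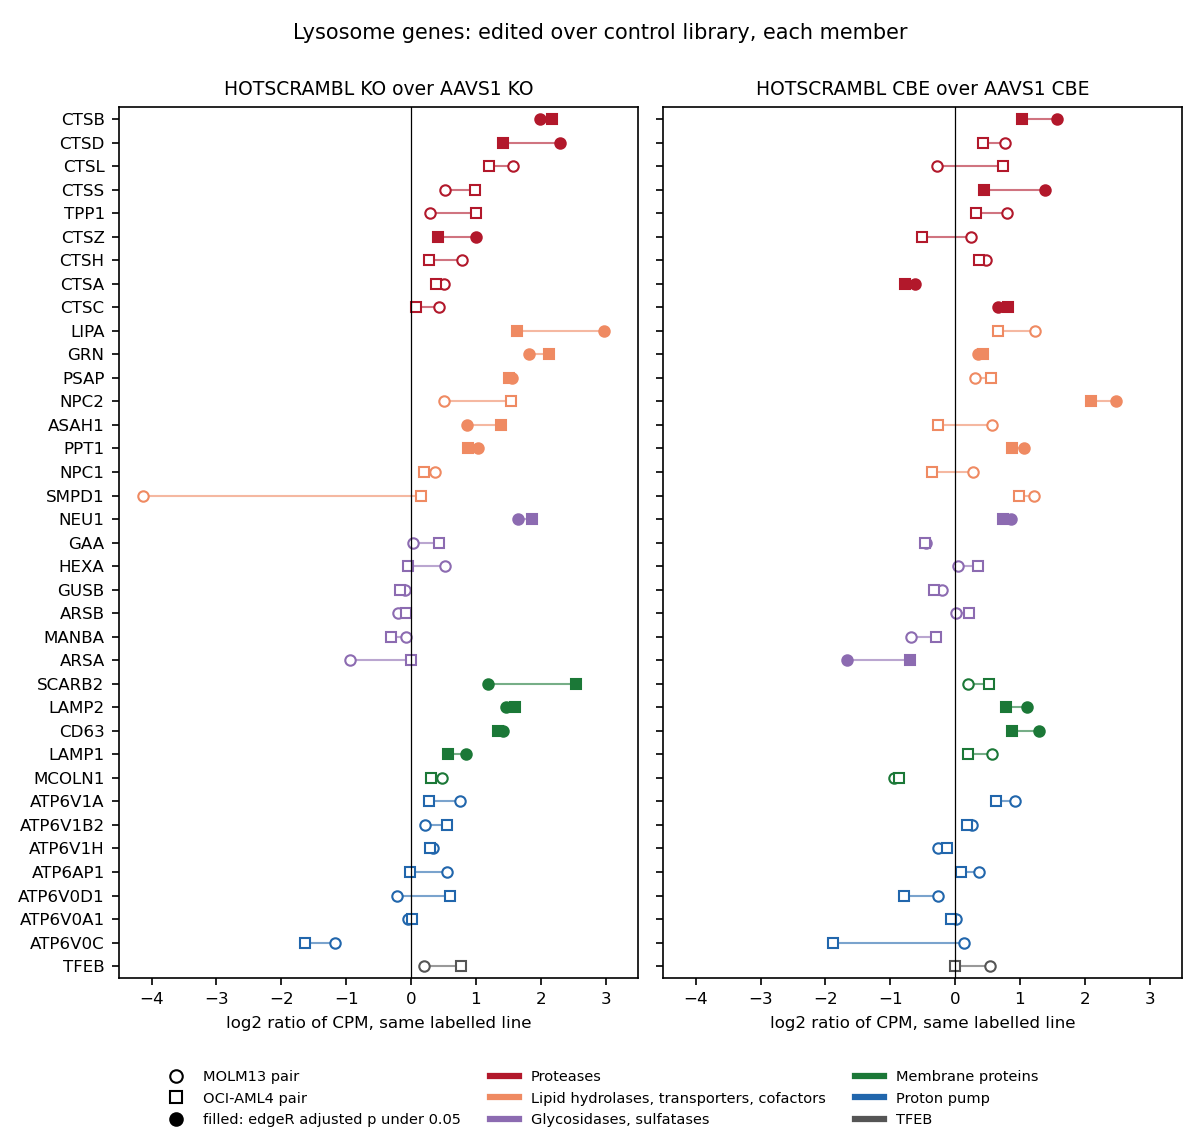
Log2 ratio of CPM in the HOTSCRAMBL library over the AAVS1 library of the same labelled line, for KO (left) and CBE (right), 1 row per member and coloured by role. Circles are MOLM13 pairs, squares are OCI-AML4 pairs and filled symbols passed the edgeR test. The filled symbols of the KO panel all lie right of 0, and CTSA and ARSA are the filled symbols left of 0 in the CBE panel.

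Levels of different genes were compared per exon length, as CPM divided by the length of the gene's exons in kilobases (RPKM). In AAVS1 KO, CTSB stood highest at 59.7 ± 0.0177 RPKM, followed by GRN at 53.4 ± 2.43 RPKM, a gap wider than their spread. PSAP (19.0 ± 3.28 RPKM) and GAA (18.3 ± 1.65 RPKM) came next and did not differ beyond their spread. The lowest were SCARB2 at 0.619 ± 0.345 and CTSL at 0.594 ± 0.641 RPKM, which also overlapped. The length used covers all annotated exons of a gene, 19388 bases for SCARB2, and so weighs on this order. In HOTSCRAMBL KO the order at the top was the same, with CTSB at 254 ± 22.6, GRN at 212 ± 42.0 and PSAP at 55.0 ± 8.58 RPKM, and here CTSB and GRN overlapped in spread.

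TFEB, the regulator on the list, did not pass the test with either editor. It stood at 25.6 CPM (MOLM13) and 20.9 CPM (OCI-AML4) in AAVS1 KO and at 29.5 and 35.6 CPM in HOTSCRAMBL KO. The CBE values were 16.4 and 28.1 CPM in the controls and 23.8 and 28.1 CPM in the HOTSCRAMBL libraries. The HOTSCRAMBL libraries were thus above both controls with KO, while the groups overlapped with CBE. Its log2 fold change with KO was 0.48 (SE 0.303, edgeR adjusted p = 0.41), and that with CBE 0.25 (SE 0.287, edgeR adjusted p = 0.692). The CBE sign rested on 1 library, since the value was -0.08 without the MOLM13 library of AAVS1 CBE. TFE3, MITF and TFEC are the other genes of the family. TFEC rose with KO by 0.84 (SE 0.234, edgeR adjusted p = 0.0215), a call lost without TMM, in a fit of only the 4 KO libraries, and when either AAVS1 KO or either HOTSCRAMBL KO library was left out, with an edgeR adjusted p of up to 0.323. With CBE it stood at -0.07 (SE 0.248). TFE3 had 0.06 and -0.51, and MITF 1.46 and -1.42, none of them past the test.

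The promoters of the members were also searched for the letters of the TFEB family's motif. The part of this motif in the members' changes was not tested. RefSeq gives windows from 250 bases before to 50 bases after a start (GRCh38.p14) for 26 of the 37 members, 40 windows in all. CACGTG, which reads the same on both strands, was in 9 of the 40 windows (22.5%), against 7.26% of all 35116 windows. Counted by gene, since CD63 alone has 8 windows, it was in 9 of 26 members (34.6%), in 24.4% of 82 further lysosome genes and in 8.77% of all 27305 genes. Also by gene, the longer TCACGTG, searched on both strands and containing CACGTG, was in 8 members (30.8%). It was in 23.2% of the further lysosome genes and in 4.49% of all genes. A still longer palindrome, CACGTG with GT before and AC after it, contains both. That palindrome was in 2 members, GAA and MCOLN1 (7.69%), in 7.32% of the further lysosome genes and in 0.421% of all genes. The 9 genes were LAMP1, NEU1, CTSD, CD63, CTSA, GAA, MCOLN1, ARSB and ATP6V0D1. Of 12 members with a window that were called with either editor, 5 held CACGTG, and of 14 called with neither, 4 did. The 5 were LAMP1, NEU1, CTSD, CD63 and CTSA, and CTSA was called only as lower, with CBE. The called members CTSB, PSAP, LAMP2, ASAH1, CTSS and ARSA had no window and were not searched. The stretches before the start that lie outside annotated exons are given for 3 called members with the motif (LAMP1, chr13:113297039-113297238, plus strand, NEU1, chr6:31862906-31863071, minus strand, CTSD, chr11:1763965-1764164, minus strand), for GRN as a called member whose window held no CACGTG (chr17:44345052-44345245, plus strand), and for MCOLN1 as an uncalled member with the longest motif (chr19:7522424-7522623, plus strand). Each reads 5′ to 3′ on the strand of the gene, and capitals mark CACGTG.
LAMP1: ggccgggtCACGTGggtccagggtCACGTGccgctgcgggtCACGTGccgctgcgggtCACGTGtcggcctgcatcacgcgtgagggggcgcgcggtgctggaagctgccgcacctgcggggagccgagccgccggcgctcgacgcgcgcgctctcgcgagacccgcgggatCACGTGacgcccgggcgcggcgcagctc
NEU1: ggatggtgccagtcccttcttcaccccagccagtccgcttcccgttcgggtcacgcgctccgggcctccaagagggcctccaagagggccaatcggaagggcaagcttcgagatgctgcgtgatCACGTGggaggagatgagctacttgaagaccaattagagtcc
CTSD: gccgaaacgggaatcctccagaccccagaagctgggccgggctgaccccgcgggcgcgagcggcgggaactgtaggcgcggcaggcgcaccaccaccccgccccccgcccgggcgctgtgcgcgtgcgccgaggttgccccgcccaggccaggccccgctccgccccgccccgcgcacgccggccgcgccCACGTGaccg
GRN: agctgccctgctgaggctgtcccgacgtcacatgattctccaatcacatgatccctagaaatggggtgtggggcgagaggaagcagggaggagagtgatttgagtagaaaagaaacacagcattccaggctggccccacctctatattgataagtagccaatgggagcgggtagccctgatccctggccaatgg
MCOLN1: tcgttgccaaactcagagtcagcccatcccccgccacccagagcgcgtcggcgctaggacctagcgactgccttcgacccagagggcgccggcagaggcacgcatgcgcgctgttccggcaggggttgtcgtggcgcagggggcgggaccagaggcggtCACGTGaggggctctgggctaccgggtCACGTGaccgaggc
LAMP1 has 5 copies in the printed stretch and a further one across the start. A match describes letters only, and no binding was measured here.

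Among the 9 proteases, 3 rose with KO, while 3 rose and 1 fell with CBE. CTSB (ENSG00000164733, chromosome 8) stood at 628 and 628 CPM in the MOLM13 and OCI-AML4 libraries of AAVS1 KO and at 2504 and 2840 CPM in HOTSCRAMBL KO. The CBE values were 523 and 654 CPM in the controls and 1561 and 1335 CPM in the HOTSCRAMBL libraries. All 4 HOTSCRAMBL libraries thus stood apart from all 4 controls, and the KO libraries from the CBE libraries. Its log2 fold change with KO was 2.09 (SE 0.101, edgeR adjusted p = 6.39e-14), and that with CBE 1.31 (SE 0.0994, edgeR adjusted p = 6.50e-10). The effect was larger with KO by 0.78 (SE 0.139, edgeR adjusted p = 0.00106). The CBE call was lost with limma-voom alone, at adjusted p = 0.0729 in a range from 2.20e-43. The difference was lost with limma-voom, at adjusted p = 0.436 in a range from 1.37e-07, and when the OCI-AML4 library of any 1 of the 4 groups was left out, with an edgeR adjusted p of up to 0.082.

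CTSD (ENSG00000117984, chromosome 11, 1752752 to 1764573, GRCh38), which encodes the aspartic protease cathepsin D, was measured at 15.8 and 33.0 CPM in AAVS1 KO and at 77.7 and 88.8 CPM in HOTSCRAMBL KO. It was at 24.4 and 34.9 CPM in AAVS1 CBE and at 41.7 and 47.2 CPM in HOTSCRAMBL CBE. The groups did not overlap with either editor, and the difference between the editors did not pass the test (1.17, SE 0.347, edgeR adjusted p = 0.0656). The log2 fold change with KO was 1.78 (SE 0.244, edgeR adjusted p = 8.91e-06), and that with CBE 0.61 (SE 0.237, edgeR adjusted p = 0.124). CTSZ, the carboxypeptidase cathepsin Z, went from 74.7 and 128 CPM to 149 and 171 CPM with KO (0.67, SE 0.179, edgeR adjusted p = 0.016), and its CBE libraries overlapped (-0.10, SE 0.183). Reads over more than 1 gene were not counted, which touches both genes, since 48% of the exon bases of CTSD and 31.7% of those of CTSZ lie in exons of other genes.

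CTSC, the dipeptidyl peptidase that activates granule serine proteases, was called with CBE but not with KO. It was at 90.3 and 78.1 CPM in AAVS1 CBE and 143 and 138 CPM in HOTSCRAMBL CBE (0.74, SE 0.148, edgeR adjusted p = 0.00133), against 99.1 and 96.6 CPM and 134 and 102 CPM with KO (0.26, SE 0.159). CTSS, a cysteine protease of antigen-presenting cells, rose from 19.1 and 29.4 CPM to 50.4 and 40.0 CPM with CBE (0.95, SE 0.258, edgeR adjusted p = 0.0178). With KO it had 25.1 and 26.5 CPM against 36.0 and 52.7 CPM (0.79, SE 0.283, edgeR adjusted p = 0.091). The effects of the editors on these genes did not differ by the test, with -0.47 (SE 0.217) for CTSC and -0.16 (SE 0.387) for CTSS.

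CTSA encodes cathepsin A, a carboxypeptidase that also protects the NEU1 sialidase, and its fold changes with the editors had opposite signs. It stood at 56.9 and 56.2 CPM in AAVS1 KO and 80.7 and 73.1 CPM in HOTSCRAMBL KO (0.44 as log2 fold change, SE 0.193, edgeR adjusted p = 0.185). In AAVS1 CBE it stood at 65.2 and 69.2 CPM and in HOTSCRAMBL CBE at 42.3 and 40.5 CPM, where it fell by 0.70 (SE 0.189, edgeR adjusted p = 0.018). The difference between the editors was 1.14 (SE 0.27, edgeR adjusted p = 0.0154), which was lost when any 1 of the 8 libraries was left out, with an edgeR adjusted p of up to 0.139. Exons of other genes cover 21.5% of its exon bases. TPP1, CTSH and CTSL were called with neither editor, at 0.69, 0.57 and 1.29 with KO and 0.56, 0.42 and 0.37 with CBE on the log2 scale.

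**Figure D3:**
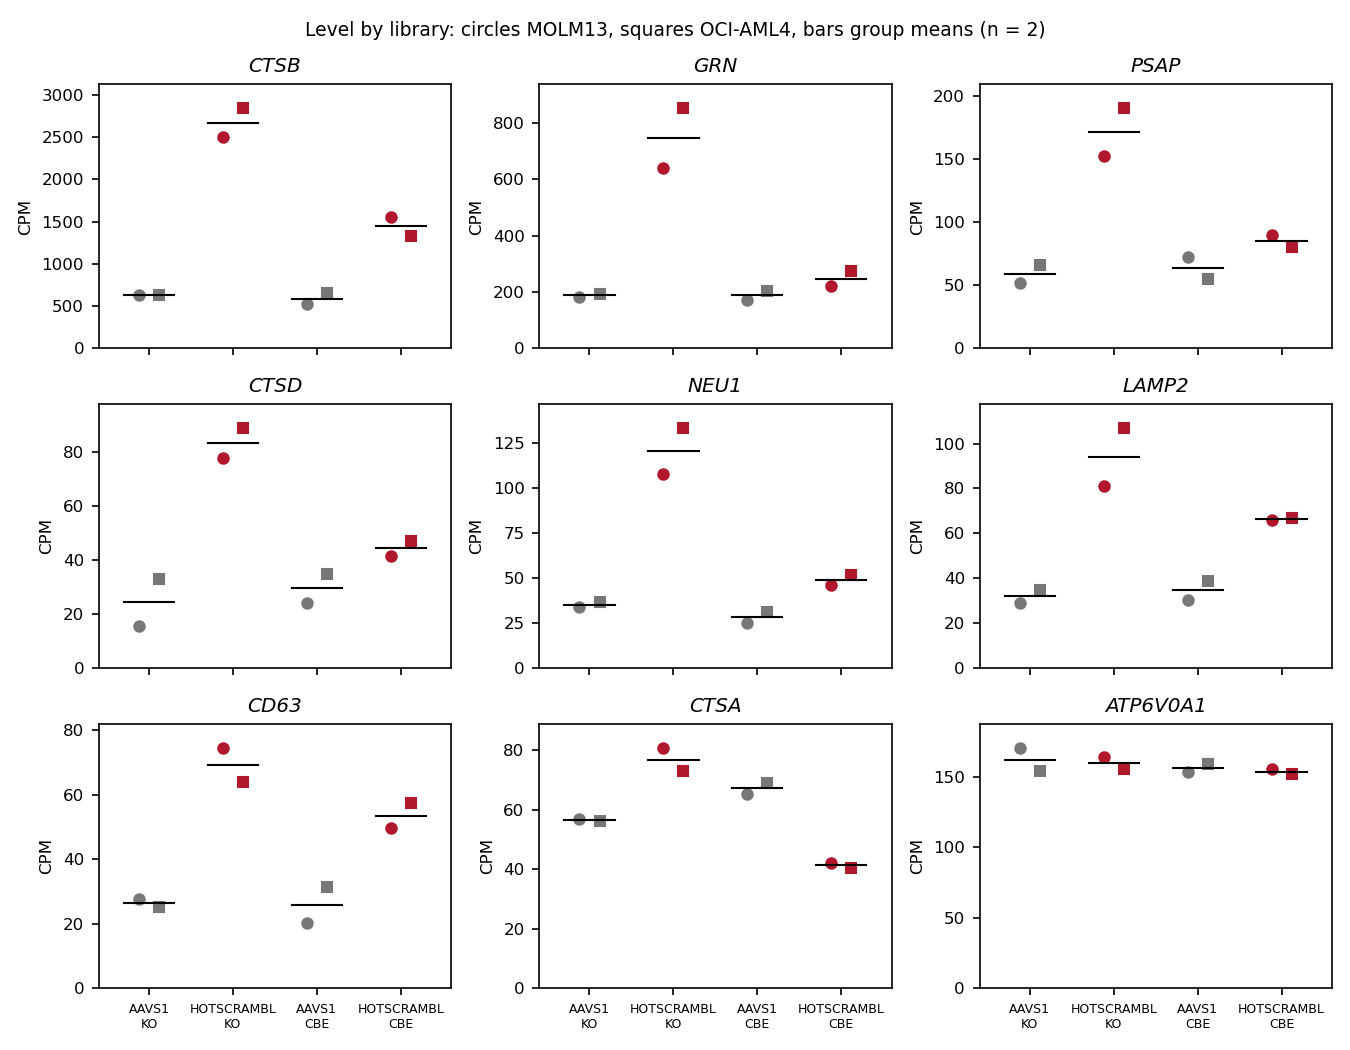
CPM of 9 members in each library (circles MOLM13, squares OCI-AML4, grey AAVS1, red HOTSCRAMBL), with horizontal bars at the group means of n = 2. CTSB reaches 2504 and 2840 CPM in HOTSCRAMBL KO, CTSA is low at 42.3 and 40.5 CPM in HOTSCRAMBL CBE, and the proton pump gene ATP6V0A1 lies between 152 and 170.0 CPM in all 8 libraries.

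Of the 8 lipid hydrolases, lipid transporters and cofactors, 5 rose with KO and 3 with CBE, and 0 fell by edgeR, at an unadjusted p under 0.05, by DESeq2 or by limma-voom. GRN (ENSG00000030582, chromosome 17, 44345246 to 44353106) encodes progranulin, which is cut into granulins in the lysosome. It was at 182 and 194 CPM in AAVS1 KO and at 641 and 851 CPM in HOTSCRAMBL KO, with CBE values of 172 and 203 CPM in the controls and 220 and 274 CPM in the HOTSCRAMBL libraries. The KO libraries lay far above all others, and the HOTSCRAMBL CBE libraries only just above their controls. The log2 fold change with KO was 1.98 (SE 0.112, edgeR adjusted p = 9.41e-13), and that with CBE 0.39 (SE 0.113, edgeR adjusted p = 0.0258), and the difference was 1.58 (SE 0.158, edgeR adjusted p = 3.46e-07). The CBE call was lost under 9 of 18 alternatives, among them the fit without the replicate block, where the edgeR adjusted p was 0.136 in a range from 0.00122 to 0.26. GRN was the member whose editor difference held under all 17 alternatives.

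PSAP encodes prosaposin, the precursor of the saposins that help hydrolases reach sphingolipids, and it binds progranulin. It stood at 52.0 and 66.5 CPM in AAVS1 KO and at 153 and 190 CPM in HOTSCRAMBL KO, and at 72.9 and 54.9 CPM against 90.2 and 80.4 CPM with CBE. The groups were separate with both editors, by a small margin with CBE. Its log2 fold change with KO was 1.54 (SE 0.183, edgeR adjusted p = 1.02e-06), and that with CBE 0.41 (SE 0.183, edgeR adjusted p = 0.191). The difference of 1.12 (SE 0.26, edgeR adjusted p = 0.0127) was lost when any of 6 of the 8 libraries was left out. Those 6 were both AAVS1 KO libraries, the OCI-AML4 library of HOTSCRAMBL KO, the MOLM13 library of AAVS1 CBE and both HOTSCRAMBL CBE libraries, with an edgeR adjusted p of up to 0.316.

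LIPA, the acid lipase that cleaves cholesteryl esters, rose with KO from 3.45 and 6.80 CPM to 27.9 and 21.2 CPM (2.25, SE 0.448, edgeR adjusted p = 0.00116). With CBE it had 4.77 and 5.72 CPM against 11.4 and 9.13 CPM (0.995, SE 0.477, edgeR adjusted p = 0.24). ASAH1, acid ceramidase, rose with KO from 48.5 and 45.4 CPM to 88.5 and 118 CPM (1.13, SE 0.212, edgeR adjusted p = 6.01e-04), while its CBE groups overlapped (0.13, SE 0.213). For both genes the HOTSCRAMBL KO libraries lay above both AAVS1 KO libraries.

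PPT1, which removes palmitate from proteins, rose by nearly the same amount with both editors. It was at 24.9 and 44.9 CPM in AAVS1 KO against 50.8 and 83.0 CPM in HOTSCRAMBL KO (0.95, SE 0.233, edgeR adjusted p = 0.00841), and at 32.0 and 39.8 CPM in AAVS1 CBE against 66.7 and 73.2 CPM in HOTSCRAMBL CBE (0.98, SE 0.21, edgeR adjusted p = 0.00238). NPC2, the soluble cholesterol carrier of the lumen, rose with CBE from 1.74 and 2.90 CPM to 10.2 and 12.7 CPM (2.35, SE 0.576, edgeR adjusted p = 0.00829). With KO it was at 4.82 and 7.88 CPM against 6.94 and 23.1 CPM, so the groups overlapped (1.25, SE 0.481, edgeR adjusted p = 0.12). NPC1, the membrane partner of NPC2, and SMPD1, acid sphingomyelinase, were called with neither editor. SMPD1 was at 0.204 CPM in the MOLM13 library of HOTSCRAMBL KO and between 2.26 and 6.15 CPM in the other 7.

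NEU1 was the 1 of 7 glycosidases and sulfatases that rose with KO. NEU1 (ENSG00000204386, chromosome 6, 31857659 to 31862905) removes sialic acid from glycans. It stood at 34.1 and 36.5 CPM in AAVS1 KO and 108 and 133 CPM in HOTSCRAMBL KO, and at 25.3 and 31.2 CPM in AAVS1 CBE and 46.2 and 51.9 CPM in HOTSCRAMBL CBE. All 4 HOTSCRAMBL libraries were above all 4 controls. The log2 fold change with KO was 1.77 (SE 0.196, edgeR adjusted p = 2.61e-07), and that with CBE 0.80 (SE 0.214, edgeR adjusted p = 0.0152). ARSA, the sulfatase that degrades sulfatides, fell with CBE from 63.1 and 42.7 CPM to 19.8 and 26.5 CPM (-1.24 as log2 fold change, SE 0.267, edgeR adjusted p = 0.00258). With KO it was at 51.5 and 43.8 CPM against 26.6 and 43.7 CPM (-0.42, SE 0.277, edgeR adjusted p = 0.443). GAA, HEXA, GUSB, MANBA and ARSB, which degrade glycogen, gangliosides, glucuronides, mannosides and dermatan sulfate, were called with neither editor, with KO values between -0.19 and 0.25 and CBE values between -0.51 and 0.19.

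Among the 5 membrane proteins 4 rose with KO and 2 with CBE. LAMP2 (chromosome X, 120426148 to 120469365), a major glycoprotein of the lysosomal membrane with a part in autophagy, was at 29.2 and 35.0 CPM in AAVS1 KO and 80.9 and 107 CPM in HOTSCRAMBL KO. With CBE it was at 30.5 and 38.8 CPM against 65.9 and 66.7 CPM. All HOTSCRAMBL libraries lay above all controls, and the log2 fold change with KO was 1.55 (SE 0.211, edgeR adjusted p = 7.81e-06), and that with CBE 0.95 (SE 0.201, edgeR adjusted p = 0.00193). CD63, a tetraspanin of late endosomes and lysosomes, showed the same separation, at 27.6 and 25.2 CPM against 74.4 and 64.0 CPM with KO, and 20.1 and 31.3 CPM against 49.7 and 57.4 CPM with CBE. Its log2 fold change with KO was 1.38 (SE 0.248, edgeR adjusted p = 3.70e-04), and that with CBE 1.07 (SE 0.238, edgeR adjusted p = 0.00344).

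LAMP1 (chromosome 13, 113297239 to 113323672), the close relative of LAMP2, rose with KO from 65.2 and 88.6 CPM to 117 and 132 CPM (0.70, SE 0.17, edgeR adjusted p = 0.00754). With CBE it was at 71.7 and 86.6 CPM against 107 and 99.3 CPM (0.40, SE 0.161, edgeR adjusted p = 0.139). SCARB2, the receptor that brings glucocerebrosidase to the lysosome, rose with KO from 16.7 and 7.28 CPM to 38.4 and 43.1 CPM (1.75, SE 0.359, edgeR adjusted p = 0.00159), and its CBE groups overlapped (0.36, SE 0.392). MCOLN1, the calcium channel of the lysosomal membrane whose promoter is printed above, was called with neither editor. It was at 20.4 and 15.9 CPM against 28.4 and 19.7 CPM with KO, which overlap, and at 27.0 and 25.6 CPM against 14.0 and 14.1 CPM with CBE, which do not (-0.92, SE 0.303, edgeR adjusted p = 0.057).

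None of the 7 proton pump genes was called by edgeR with either editor. At an unadjusted p under 0.05 there were 1 with KO and 2 with CBE. DESeq2 on the same genes called ATP6V1B2 with KO and ATP6V1A with CBE, both higher, while DESeq2 with its own filter and limma-voom called 0. Log2 fold changes ran from -1.54 (ATP6V0C) to 0.50 (ATP6V1A) with KO and from -1.02 (ATP6V0C) to 0.80 (ATP6V1A) with CBE. ATP6V0C was low, at 0.748 to 4.92 CPM, and 76.3% of its exon bases lie in exons of other genes. ATP6V0A1, which anchors the pump in the membrane, was at 170.0 and 154 CPM against 164 and 155 CPM with KO (-0.02, SE 0.134) and at 153 and 159 CPM against 155 and 152 CPM with CBE (-0.02, SE 0.128), so the groups overlapped.

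The editors were then compared. Of the 37 members, 6 rose with both (CTSB, NEU1, PPT1, GRN, LAMP2 and CD63), which 1.65% of all tested genes did. By edgeR 0 fell with both (1.41% of all genes did), and with KO alone 0 members were lower at an unadjusted p under 0.05, by DESeq2 or by limma-voom. A further 7 were called with KO alone (5.38% of all genes) and 5 with CBE alone (5.45%), and 19 with neither (85.8%). The test of the difference called 4 members, all higher with KO than with CBE, namely CTSB, GRN, PSAP and CTSA, against 1.74% of all genes in that direction and 3.19% in either. The point estimate was larger with KO for 29 of the 37. Across the 37 genes the log2 fold changes with KO and with CBE had a Spearman correlation of 0.64 and a Pearson correlation of 0.56, beside a Spearman correlation of 0.12 over all tested genes. The KO and CBE comparisons use different libraries but share 1 model, and genes are not independent replicates. Of the 24057 tested genes, 9645 averaged at least 10 CPM, against 33 of the 37 members. Noisier estimates of low genes pull a correlation towards 0, so 0.64 and 0.12 are not like with like. A correlation over genes as abundant as the members was not computed.

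**Figure D4:**
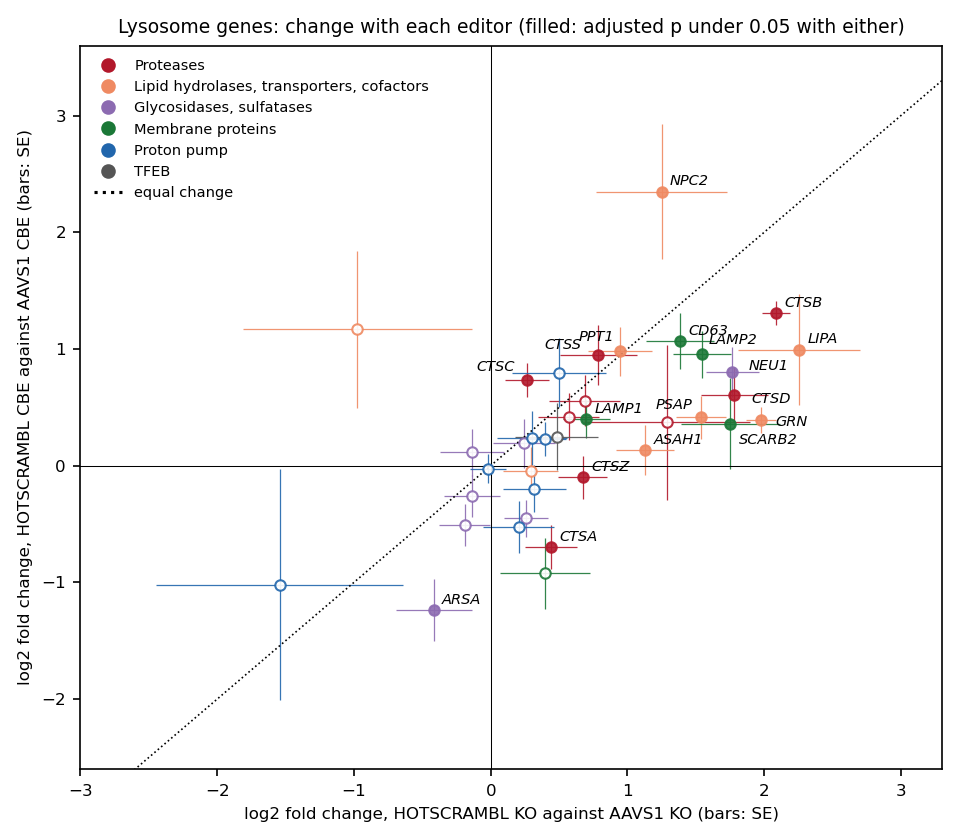
Log2 fold change of each member with KO (x axis) and with CBE (y axis), with bars of 1 standard error, coloured by role, and a dotted line of equal change. Members called with either editor are filled and named; GRN and PSAP lie far below the line, at 1.98 and 0.39 and at 1.54 and 0.41, while PPT1 lies on it.

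The control groups gave the background of the editors themselves. Between AAVS1 CBE and AAVS1 KO, 0 members passed edgeR's test, as did 0% of all genes, and 2 members had an unadjusted p under 0.05. DESeq2 and limma-voom called 0 as well. The members' median log2 difference was 0.02, with a range from -1.45 (NPC2) to 0.53 (ATP6V0D1). Between the labelled lines, MOLM13 against OCI-AML4, edgeR called 0 members (0.495% of all genes). There were 9 at an unadjusted p under 0.05, and the median was -0.10. DESeq2 called CTSL, GRN and PPT1 on the same genes and CTSL and GRN with its own filter, and limma-voom called GRN, each lower in MOLM13. These 3 were named after their values were seen.

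The KO calls of CTSB, CTSD, GRN, LAMP2, NEU1 and PSAP held under all alternatives and with any 1 library left out. Of the 13, 9 remained without the MOLM13 library of AAVS1 KO, where CTSZ, LAMP1, LIPA and PPT1 were lost, and 9 without the OCI-AML4 library, where ASAH1, CD63, PPT1 and SCARB2 were lost. Without the MOLM13 library of HOTSCRAMBL KO 8 remained, with CD63, CTSZ, LAMP1, LIPA and SCARB2 lost, and without the OCI-AML4 library 8, with ASAH1, CTSZ, LAMP1, PPT1 and SCARB2 lost. The CBE calls rested more on single libraries. CTSB alone remained of 11 without the MOLM13 library of AAVS1 CBE. Without the OCI-AML4 library of AAVS1 CBE 4 remained, ARSA, CD63, CTSB and LAMP2. Without the MOLM13 library of HOTSCRAMBL CBE 2 remained, CTSB and CTSC, and without the OCI-AML4 library 6, ARSA, CTSB, CTSS, LAMP2, NPC2 and PPT1. CTSS and GRN were also lost without either AAVS1 KO library.

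The composition of the pull-downs moved with the same groups. The 86 cytosolic ribosomal protein genes took 1.32% to 1.60% of counts in the 4 controls, 3.98% and 4.46% in HOTSCRAMBL KO and 3.20% and 3.38% in HOTSCRAMBL CBE. Mitochondrial RNAs took 6.72% to 7.17% in the controls, 10.7% and 11.8% in HOTSCRAMBL KO and 11.6% and 10.1% in HOTSCRAMBL CBE. The lysosome genes took 0.238% to 0.273% in the controls, 0.520% and 0.575% in HOTSCRAMBL KO and 0.345% and 0.332% in HOTSCRAMBL CBE. The part of this composition in the members' changes was not tested.

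Of the 9 myeloid markers tested, 2 rose and 0 fell with KO, with a median log2 fold change of -0.09 and 3 values above 0, and 2 rose and 1 fell with CBE. Of the 8 monocyte markers tested, 2 rose with KO and 1 with CBE, with medians of 0.48 and 0.07 and 5 values above 0 with each. Their KO values ran from -6.43 to 8.44. Over all tested genes, 4.51% rose and 4.25% fell with KO, and 4.56% rose and 4.27% fell with CBE. The 10 monocyte markers summed to 199 and 185 CPM in AAVS1 KO and 211 and 271 CPM in HOTSCRAMBL KO, and to 182 and 168 CPM against 171 and 191 CPM with CBE. CSF1R was among the monocyte markers that rose with KO, and CD4 rose with CBE, while CD163 and MRC1 were at or near 0 and CD14 was at most 2.59 CPM. LYZ, the secreted lysozyme of myeloid cells, rose with KO and was at 120 and 141 CPM against 506 and 702 CPM with KO, and at 116 and 142 CPM against 148 and 152 CPM with CBE. The other myeloid markers that changed were CEBPA, which rose with both editors, PTPRC, which rose with CBE, and CSF3R, which fell with CBE. PECAM1, an endothelial marker that leukocytes also carry, rose with KO, from 99.3 and 96.6 CPM to 181 and 148 CPM. The part of these markers in the members' changes was not tested.

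The wider pathway was read from a list of 106 further lysosome genes, 104 of them tested. With KO 14 rose and 3 fell, and with CBE 10 rose and 10 fell, with medians of 0.11 and 0.02. Over all tested genes, 4.51% rose and 4.25% fell with KO, and 4.56% rose and 4.27% fell with CBE. By class, 8 of the 28 tested hydrolases rose and 1 fell with KO, against 3 and 3 with CBE. Of 15 sorting genes 2 rose with KO and 3 with CBE, of 12 proton pump genes 2 rose and 1 fell with each editor, and of 12 autophagy genes 1 fell with each. Of 20 other membrane genes 1 rose with KO, while 2 rose and 3 fell with CBE, and of 17 regulators 1 rose with KO and 2 fell with CBE. LAPTM5, a lysosomal membrane protein of blood cells, rose from 117 and 167 CPM to 383 and 499 CPM with KO (1.64, SE 0.12, edgeR adjusted p = 1.11e-10) and from 114 and 160 CPM to 259 and 313 CPM with CBE (1.07, SE 0.118, edgeR adjusted p = 3.15e-07). Its calls held under all alternatives.

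MAN2B1, the acid alpha-mannosidase, was called in opposite directions. It rose with KO from 228 and 230 CPM to 367 and 310 CPM (0.56, SE 0.123, edgeR adjusted p = 0.00312) and fell with CBE from 229 and 263 CPM to 131 and 145 CPM (-0.83, SE 0.127, edgeR adjusted p = 4.53e-05). The difference was 1.40 (SE 0.177, edgeR adjusted p = 1.28e-05), and the KO call was lost without either AAVS1 KO library or without the MOLM13 library of HOTSCRAMBL KO, with an edgeR adjusted p of up to 0.224. TCIRG1, a membrane subunit of the proton pump, fell by 0.66 with KO and by 1.07 with CBE, and ULK1, the kinase that starts autophagy, fell by 0.96 and by 0.58. GALNS, a sulfatase, fell by 0.61 and by 0.96. GGA2, an adaptor that sorts hydrolases towards lysosomes, rose by 0.85 and 0.33, PLBD2 by 0.80 and 0.88, the proton pump gene ATP6V1G1 by 1.30 and 0.91, and RAB7A, the GTPase of late endosomes, by 0.82 and 0.58. GM2A, a ganglioside activator, rose by 1.48 with KO, and LAPTM4B rose by 1.69 with CBE. Of these calls, those of ULK1 with KO, of TCIRG1 and MAN2B1 with CBE and of MAN2B1 in the editor difference held under all alternatives. That of GGA2 with KO was lost with limma-voom alone, at adjusted p = 0.0707 in a range from 3.96e-19. Each of the other KO and CBE calls was lost when at least 1 library was left out, with edgeR adjusted p of up to 0.624.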

How the data were processed

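RNA counts of 8 ChIRP libraries were analysed, 2 in each of 4 groups, grouped by the sample titles. Values in the deposited table are whole-number counts, made by the authors for each gene with featureCounts 2.0.6 on Ensembl 112 (GRCh38), per the file headers. Per those headers no strand option was set, and reads at several positions or over several genes were not counted. Both reads of a pair were counted, per the file headers, and 71.8% to 74.9% of values from 1 to 20 were even. The aligner version is not given in the sources used here. Line breaks inside the records of 2 genes were repaired, 62541 identifiers (99.05%) matched a symbol, and the table had 0 columns from outside these samples. Total counts of 20548300 to 37970163 per library set the precision.

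Genes were tested with edgeR 4.0.16 (R 4.3.3): the quasi-likelihood test with robust estimation, TMM scaling and filterByExpr (minimum count 10, 24057 genes kept), terms for group and labelled line, 3 residual degrees of freedom, Benjamini-Hochberg adjustment over all tested genes and a threshold of 0.05. The common biological coefficient of variation was 0.708, and the members' median 0.175. DESeq2 1.42.0, limma-voom (limma 3.58.1), other scalings and filters, halved counts, a fit of only 4 libraries and leaving out each library were tried. Pairing comes from the stated line, the same in each replicate number, and deviations from group means correlated between groups with r from 0.00851 to 0.0245, and from 0.0411 to 0.117 over genes above the median level. Libraries with the same line label thus shared little that set them apart from the other label. The labels serve here as names of replicates, not as verified lines. CPM are TMM-scaled, RPKM use the table's exon lengths, and same-line ratios add 0.1 CPM. Described in full are members called with either editor or in the difference. Of other lysosome genes, those called with both editors, those with the 5 smallest p per editor, and the TFEB family are named. Members and lists were chosen with earlier results of these data known. Promoter sequences are from RefSeq (GRCh38.p14), printed where no annotated exon lies. Results for some marker genes are not reported here.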

Additional observations from a re-analysis of the deposited data

Results flagged for a closer look

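For 6 of the lysosome genes named above, the effect of targeting HOTSCRAMBL differed between the editors by edgeR's test of the difference. That test took the log2 fold change with KO minus that with CBE, with n = 2 libraries per group. The difference was 1.58 for GRN (edgeR adjusted p = 3.46e-07), 0.78 for CTSB (edgeR adjusted p = 0.00106), 1.12 for PSAP (edgeR adjusted p = 0.0127) and 1.14 for CTSA (edgeR adjusted p = 0.0154) among the 37 listed genes. Among the further lysosome genes it was 1.40 for MAN2B1 (edgeR adjusted p = 1.28e-05) and 0.52 for GGA2 (edgeR adjusted p = 0.0238). All 6 were higher with KO. In all, the test called 5 of the 104 further genes tested, all higher with KO, beside 3.19% of all genes in either direction. SGSH (2.86, edgeR adjusted p = 0.0412) and FUCA1 (2.09, edgeR adjusted p = 0.0262) were among those 5 and were not followed through the alternatives. GRN and MAN2B1 kept the call under all 17 alternatives, and the call of GGA2 was lost under 9 of 17.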

How the results depend on the processing

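Counts of called members were recomputed under each alternative, with 13 for KO, 11 for CBE, 4 for the editor difference and 0 for the controls and for the lines as the reported values. A fit of only the 4 libraries of a contrast left 8 for KO and 3 for CBE, where fewer samples estimate the spread. DESeq2 on the same genes gave 18 for KO, 15 for CBE (10 higher and 5 lower), 10 for the editor difference and 3 for the lines. With its own filter DESeq2 gave 13, 11, 6 and 2 in that order, and limma-voom 13, 10, 6 and 1. The earlier quasi-likelihood method of edgeR, chosen after seeing the data, gave 8 for the editor difference. The cause of these shifts was not tested. Leaving out 1 library gave 8 to 13 for KO, 1 to 11 for CBE and 1 to 3 for the editor difference, and 0 throughout for the controls and the lines. Where that left a group with 1 library, the lone library was assumed to vary like the others. Without the replicate block the counts were 13, 10 and 4, and of the members' KO, CBE and difference calls it changed that of GRN with CBE only. The TFEB value with CBE ran from -0.0771, a reversed sign, without AAVS1 CBE replicate 1 to 0.6028 without AAVS1 CBE replicate 2. The members' median log2 fold change stayed between 0.34 and 0.55 with KO and between 0.22 and 0.46 with CBE. Among single genes, 789 values kept their side of the threshold, 176 no longer passed it and 1 reversed. CTSL, LIPA, NPC2, SMPD1 and ATP6V0C had few counts, as low as 4 in a library, and their changes are the least precise.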
